A study of Mus musculus with 20 samples.

Results

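The amino acid catabolic enzymes are the liver genes that take apart tyrosine, histidine, serine, glycine, proline, ornithine, the sulfur amino acids and the branched-chain amino acids, together with the transaminases that link them. The genes were chosen by name, as a list of 39 enzymes of these routes. Their values were not part of the rule of choice, but earlier results of these data were known. Of the 39, 36 had a probe set annotated with that symbol alone and were measured, out of 18193 genes in all. Sds, Sdsl and Amt were not analysed here, so the serine route has no measured gene. Where a gene had several probe sets, the one with the highest average over all 20 arrays stood for it. No filter on low values was used, so all 36 were tested.

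The livers came from male C57BL/6J mice, an inbred strain with no engineered allele named in the labels. One group of 10 mice was fed a high-fat diet with 45% of its energy from fat (HFD), and the other group of 10 a low-fat diet with 10% (LFD), for 4 weeks. All mice arrived at 3 weeks of age, spent 1 week on the low-fat diet, were about 8 weeks old at the end and were fasted for 16 h before the liver was taken, so both groups are fasted livers. RNA of each mouse was hybridised to its own Affymetrix array.

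Most amino acids are broken down in the liver, where the carbon skeletons feed gluconeogenesis, ketone bodies or the citrate cycle and the nitrogen passes to urea. Several of these enzymes are classical targets of glucagon and glucocorticoids in fasting. The branched-chain amino acids are an exception: their transamination takes place mainly in muscle and other tissues, and the liver is strong in the later, mitochondrial steps. The pathway is also zoned across the liver lobule, with histidine and serine breakdown mainly near the portal vein and ornithine aminotransferase near the central vein.

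The deposited score of a probe set runs like a log2 intensity in level, with array medians between 6.567 and 6.5672, but differences between arrays are strongly compressed, to a degree that differs between probe sets (median SD over the 20 arrays 1.17e-05). Differences in score cannot be read as fold changes on the log2 scale. The measure of size is the standardised difference, the HFD mean minus the LFD mean divided by the SD within diets, with a 95% interval, and each mouse is placed by its distance from the LFD mean in the same SDs. Both rest on the score rising with the transcript, which was not tested. In whole liver, fewer cells of a type and less RNA per cell cannot be told apart. The number of arrays limits the precision.

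The hepatocyte genes Alb, Apoa1, Ttr and Fgb had mean scores of 14.8194, 14.5788, 14.5343 and 13.7251 on the HFD arrays, and of the same size on the LFD arrays, far above the array median, so the tissue label fits its defining markers. The array medians were higher in HFD by 7.33e-05, and the 24 probe sets for spiked-in poly-A control RNA, averaged per mouse in SDs, were lower, at -0.43 (range -2.44 to 1.16) in HFD against 0.43 (0.154 to 0.976) in LFD. The part of these shifts in the results was tested only through the alternative scalings and the spike-in covariate. HFD replicate 3 stood low among the HFD mice. It was the lowest HFD mouse for 16 of the 36 enzymes, and LFD replicate 9 was the highest LFD mouse for 14. Leaving out HFD replicate 3 gave 3 enzymes past the threshold in place of 2: Uroc1 (-2.02, limma adjusted p = 0.017), Mccc2 (1.85, 0.0267) and Oat (1.73, 0.0387).

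On the high-fat diet 1 enzyme fell and 1 rose. Uroc1, the urocanate hydratase of histidine breakdown, was lower by 2.01 SD, and Mccc2, the beta subunit of the leucine enzyme methylcrotonyl-CoA carboxylase, was higher by 1.72 SD as deposited, although its sign turned after quantile normalisation and after median centring of the arrays. With limma, 2 of 36 enzymes (5.56%) passed an adjusted p of 0.05, against 3.49% of all genes, 1.71% higher and 1.78% lower, so the share of enzymes called lay near the background. Means were higher in HFD for 18 enzymes and lower for 18 (52.5% of all genes were higher), and the median standardised difference was 0.01, against 0.04 over all genes. At an unadjusted p under 0.05 there were 8 enzymes (22.2%), 6 higher and 2 lower, against 17% of all genes. In none of the 36 were the diets completely separated, as they were in 0.275% of all genes. The scaling of the arrays set these counts. After median centring, which put the median of all genes at -1.29 in place of 0.04, 16 enzymes were called lower and 1 higher. Over all 18193 genes, 14883 were called lower there and 215 higher. The share of the 36 enzymes called lower was thus below that of all genes. After quantile normalisation (median -0.41) 0 of the 27 enzymes that still varied were called, against 1488 of 17325 genes.

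**Figure D1:**
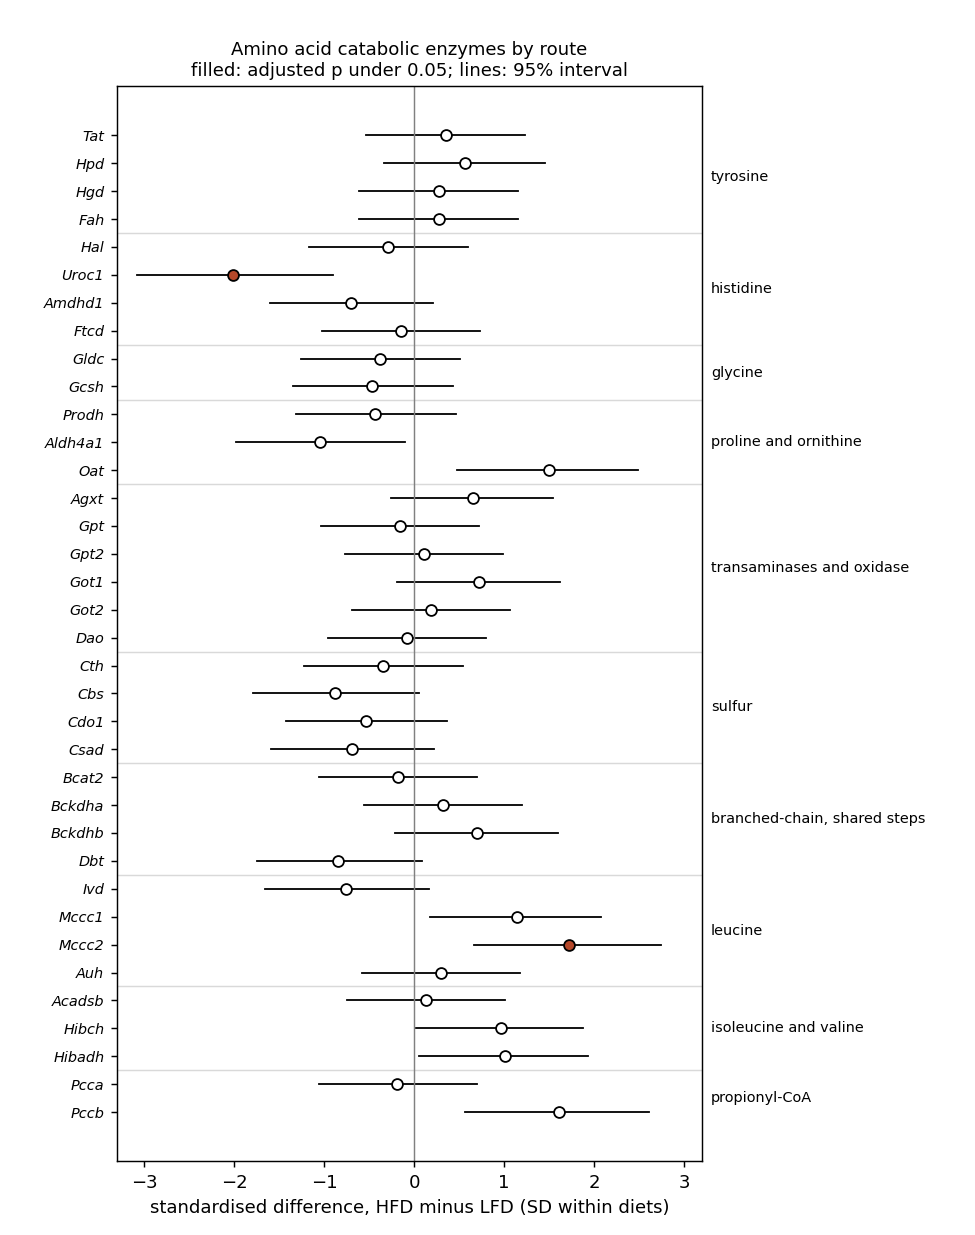
Standardised difference (HFD minus LFD, in SDs within diets) of each of the 36 enzymes with its 95% interval, grouped by route. Filled points passed an adjusted p of 0.05: Uroc1 at -2.01 and Mccc2 at 1.72, of which Mccc2 turned sign after quantile normalisation and median centring. Most intervals cross 0.

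For the 2 enzymes that passed as deposited, the sequence just upstream of the gene's annotated start is shown. Its part in regulation was not tested. The windows are from RefSeq (GRCm38.p6), end at the base before the gene's annotated start and run 5′ to 3′ along the gene: chr6:90333039-90333238 on the plus strand for Uroc1 (200 bases) and chr13:100015640-100015889 on the minus strand for Mccc2 (250 bases). Capitals mark matches to CCAAT or CACGTG on either strand.
Uroc1: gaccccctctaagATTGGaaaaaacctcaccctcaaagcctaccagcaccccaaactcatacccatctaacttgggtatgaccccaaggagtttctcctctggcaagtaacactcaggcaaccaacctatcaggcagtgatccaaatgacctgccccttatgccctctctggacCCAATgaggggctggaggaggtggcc
Mccc2: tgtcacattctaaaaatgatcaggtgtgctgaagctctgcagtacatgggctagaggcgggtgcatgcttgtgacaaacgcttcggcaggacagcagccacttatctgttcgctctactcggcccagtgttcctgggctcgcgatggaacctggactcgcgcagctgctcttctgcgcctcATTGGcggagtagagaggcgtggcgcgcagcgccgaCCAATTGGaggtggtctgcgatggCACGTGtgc
The motifs searched on both strands were the CCAAT box (CCAAT), the TATA box (TATAAA), the E-box of one type (CACGTG), the cAMP response element (TGACGTCA) and the core hexamer of the glucocorticoid response element (AGAACA). The Uroc1 window held CCAAT at 2 places, and 28.4% of all windows of that length held it at least at 1. The Mccc2 window held CCAAT at 3 places, of which 2 overlap in a palindrome, against 33.8% of all windows with a match, and CACGTG, its own reverse complement, at 1 place, against 6.02%. The other motifs had 0 matches in either window. A match describes letters only.

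Histidine breakdown runs from Hal, which removes the amino group of histidine to give urocanate, through Uroc1 and Amdhd1, which opens the imidazolone ring, to Ftcd, which hands the last carbon to folate. All 4 had lower means in HFD, also after median centring, as did the 3 that still varied after quantile normalisation. Those scalings lowered genes in general (medians of all genes -1.29 and -0.41), so lower signs there add little. Median centring took 7.33e-05 more from the HFD arrays on average, so a gene lower as deposited could not turn. Of the 4, Uroc1 passed. Its deposited score averaged 10.093098 ± 0.000145 in HFD and 10.093433 ± 0.000187 in LFD (SD, n = 10 each). In distance from the LFD mean, the HFD mice ran from -3.99 through a median of -1.60 to -1.23, and the LFD mice from -1.45 through -0.22 to 2.36. Thus 9 of 10 HFD mice lay below every LFD mouse, the groups overlapped at a single HFD mouse, and the HFD mouse was higher in 1 of 100 pairs. The standardised difference was -2.01 (95% interval -3.08 to -0.90, limma adjusted p = 0.0136). The call held in all 20 fits that left out 1 mouse (adjusted p 0.0104 to 0.0268), but after quantile normalisation the value was -0.91 (adjusted p = 0.184).

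The representative probe set of Uroc1 carries a suffix for possible cross-hybridisation. The gene's other probe set, which does not, stood at -1.66 (95% interval -2.68 to -0.62). Its adjusted p was 0.052 over all probe sets by limma, where 2.32% were called. It passed as the representative of Uroc1 when probe sets ending in _x_at, _s_at or _a_at (suffixed probe sets) were left out before choosing. The neighbours of Uroc1 in the route did not pass. Amdhd1 stood at -0.70 (95% interval -1.60 to 0.21), with HFD mice from -2.09 to 0.46 and LFD mice from -1.19 to 2.10, and its other probe set was also negative. Hal stood at -0.29 (-1.17 to 0.60) and Ftcd at -0.15 (-1.02 to 0.73). The mean of the 4 genes in each mouse ran from -1.70 through -0.83 to 0.41 in HFD and from -1.18 through -0.06 to 1.97 in LFD, and 1 of 10 HFD mice lay above the LFD median. Whether Uroc1 differed more than its neighbours was not tested.

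Tyrosine breakdown starts with the transaminase Tat, and goes on through the dioxygenases Hpd and Hgd to Fah, which splits fumarylacetoacetate. All 4 had slightly higher means in HFD, between 0.27 and 0.57 SD, but 3 of them were lower after median centring, and 0 passed. Hpd, with the smallest p of the route, had HFD mice from -1.32 through 0.83 to 2.47 and LFD mice from -1.44 through 0.10 to 1.13, a difference of 0.57 (95% interval -0.34 to 1.45, limma adjusted p = 0.567). For Tat, a hormone-induced gene, the HFD mice were spread widely, from -2.21 through 0.83 to 1.66, around LFD mice from -1.11 through 0.02 to 0.85. Of the 10 HFD mice 5 lay above every LFD mouse and 2 below every LFD mouse for Tat, so its difference of 0.35 (-0.54 to 1.23) averages over mice on both sides. Hgd stood at 0.27 (-0.61 to 1.15), with another probe set at 0.60, and Fah at 0.28 (-0.61 to 1.16).

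Of the glycine cleavage system, which splits glycine into carbon dioxide, ammonia and a folate-bound carbon, the decarboxylase Gldc and the lipoate-carrying Gcsh were measured. Both had lower means in HFD, although Gcsh stood at 0.67 after quantile normalisation. As deposited, Gcsh had HFD mice from -2.51 through -0.17 to 0.68 and LFD mice from -1.95 through 0.35 to 0.97, with a difference of -0.46 (95% interval -1.35 to 0.43, limma adjusted p = 0.657). The groups overlapped over nearly their whole range. Gldc stood at -0.38 (-1.26 to 0.51).

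In proline and ornithine breakdown the values split. Oat, which turns ornithine into glutamate semialdehyde and marks hepatocytes around the central vein, had HFD mice from 0.07 through 1.55 to 2.35 and LFD mice from -2.14 through 0.44 to 1.70. The HFD mice were the tighter group, with 9 of 10 above the LFD median and 4 above every LFD mouse. The difference of 1.50 (95% interval 0.48 to 2.49) missed the threshold over all genes (limma adjusted p = 0.0643). Oat passed without HFD replicate 3 (adjusted p = 0.0387), without LFD replicate 3 (0.0317), among the upper genes by mean (0.0418) and after either centring. After quantile normalisation Oat stood at 0.447 (limma adjusted p = 0.54). That step made 868 genes constant over the arrays, and Amdhd1 and Ivd both stood at -0.447 there, with the same adjusted p. How many scores of Oat were tied there was not counted, so its value cannot be read as a weakening. Prodh, which oxidises proline, stood at -0.43 (-1.31 to 0.46), and Aldh4a1, which oxidises the semialdehyde to glutamate, at -1.05 (-1.98 to -0.10, limma adjusted p = 0.219), with 9 of 10 HFD mice below the LFD median. After quantile normalisation Aldh4a1 stood at 1.07.

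Among the transaminases, Gpt and Gpt2 handle alanine, Got1 and Got2 aspartate, and Agxt transfers the amino group of alanine to glyoxylate. Dao, grouped with them here, oxidises D-amino acids. Of these 6 genes 0 passed, with values between -0.16 and 0.73. Got1 had the smallest p: the HFD mice ran from -1.26 through 0.85 to 2.31 and the LFD mice from -1.92 through 0.35 to 0.76, and 6 HFD mice lay above every LFD mouse. Its difference was 0.73 (95% interval -0.19 to 1.62, limma adjusted p = 0.434). Agxt stood at 0.65 (-0.26 to 1.54), Got2 at 0.19 (-0.69 to 1.07), Gpt2 at 0.11 (-0.77 to 0.98), Dao at -0.08 (-0.96 to 0.80) and Gpt at -0.16 (-1.03 to 0.72). Gpt turned to 0.13 without HFD replicate 3. All 4 probe sets of Gpt2 were positive, between 0.11 and 0.56, and the 4 of Got2 were divided, between -0.49 and 0.69. The mean score of Dao was 6.599 in HFD, close to the array median, so little signal stands behind it.

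The sulfur amino acid genes had lower means in HFD for all 4 members, between -0.88 and -0.34 SD, with Cbs turned to 0.88 after quantile normalisation, and 0 passed. Cbs and Cth carry homocysteine to cysteine, Cdo1 oxidises cysteine, and Csad then makes the precursor of taurine. Cbs had HFD mice from -2.30 through -0.71 to 0.12 and LFD mice from -2.20 through 0.07 to 1.43, with 8 of 10 HFD mice below the LFD median. Its difference was -0.88 (95% interval -1.79 to 0.06, limma adjusted p = 0.323), and the other probe set of Cbs stood at -0.43. Csad stood at -0.69 (-1.58 to 0.23), Cdo1 at -0.53 (-1.42 to 0.37) and Cth at -0.34 (-1.22 to 0.54). The mean of the 4 genes in each mouse ran from -1.62 through -0.51 to 0.15 in HFD and from -1.18 through -0.14 to 1.22 in LFD, and 1 of 10 HFD mice lay above the LFD median.

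**Figure D2:**
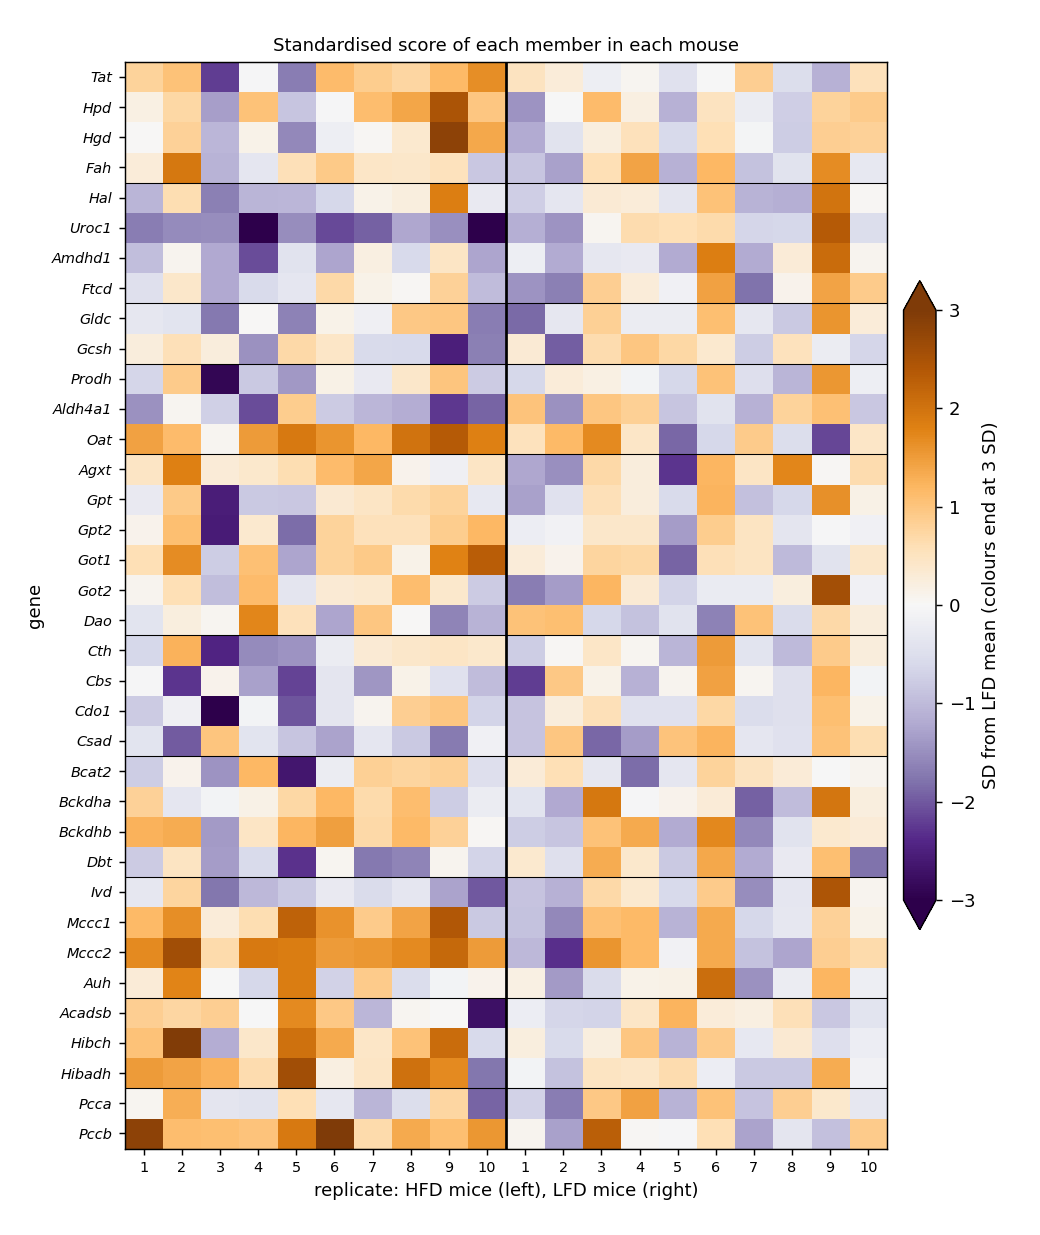
Score of each enzyme (rows, by route) in each mouse (columns, HFD left and LFD right), in SDs from the LFD mean. Uroc1 is low in the HFD columns and Mccc2 and Pccb high, while most other rows mix in both diets; HFD replicate 3 is the lowest HFD mouse in 16 of 36 rows. The signs of Mccc2 and Pccb turned after median centring, and that of Mccc2 also after quantile normalisation.

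The branched-chain routes held 13 of the measured genes, of which 9 had higher means in HFD (1 of 13 after median centring, 3 of 10 after quantile normalisation) and 1 passed. In their shared steps, Bcat2 removes the amino group and a dehydrogenase complex, of which Bckdha and Bckdhb form the decarboxylase and Dbt the core, removes a carbon. None of these 4 passed, and they lay on both sides of 0. Dbt had HFD mice from -2.31 through -0.74 to 0.48 and LFD mice from -1.80 through 0.05 to 1.38, with a difference of -0.84 (95% interval -1.75 to 0.09, limma adjusted p = 0.348). Bckdhb stood at 0.70 (-0.21 to 1.60), Bckdha at 0.33 (-0.56 to 1.20) and Bcat2 at -0.18 (-1.06 to 0.70). The score of Bcat2 averaged 6.505 in HFD, below the array median.

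In the leucine branch, Ivd oxidises isovaleryl-CoA, the biotin enzyme built from Mccc1 (the subunit that carries biotin) and Mccc2 adds a carboxyl group, and Auh hydrates the product. Mccc2 had a deposited score of 9.389631 ± 1.19e-05 in HFD and 9.389590 ± 3.15e-05 in LFD (SD, n = 10 each). The HFD mice ran from 0.66 through 1.71 to 2.60 in SDs from the LFD mean, and the LFD mice from -2.34 through 0.28 to 1.58. All 10 HFD mice lay above the LFD median and 6 above every LFD mouse, the HFD mice were the tighter group, and the HFD mouse was higher in 92 of 100 pairs. The standardised difference was 1.72 (95% interval 0.66 to 2.74, limma adjusted p = 0.0343). Its other probe sets stood at 1.51 (0.49 to 2.50) and 0.84 (-0.09 to 1.74), in the same direction and past no threshold (adjusted p = 0.0781 and 0.385 over all probe sets).

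The call of Mccc2 lay close to the threshold. It was lost in 11 of 20 fits without 1 mouse: without LFD replicate 1 (adjusted p = 0.0573), 5 (0.0557), 7 (0.056) or 8 (0.0646), and without HFD replicate 1 (0.0531), 2 (0.0565), 4 (0.0558), 5 (0.0541), 8 (0.0511), 9 (0.0558) or 10 (0.0507). It was also lost with the mean of the gene's probe sets (0.0557) and with the spike-in score as a covariate (0.0743). After quantile normalisation Mccc2 stood at -0.67 and after median centring at -0.60, the reverse of its sign as deposited, neither past the threshold; all genes had medians of -0.41 and -1.29 there. Mccc1, the partner subunit, stood at 1.14 (95% interval 0.18 to 2.08, limma adjusted p = 0.171), with HFD mice from -0.80 through 1.29 to 2.39, LFD mice from -1.56 through -0.10 to 1.34, and 9 of 10 HFD mice above the LFD median, and at -0.74 after quantile normalisation. Auh stood at 0.30 (-0.58 to 1.18), with 6 probe sets divided between both signs, and Ivd at -0.76 (-1.66 to 0.16).

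**Figure D3:**
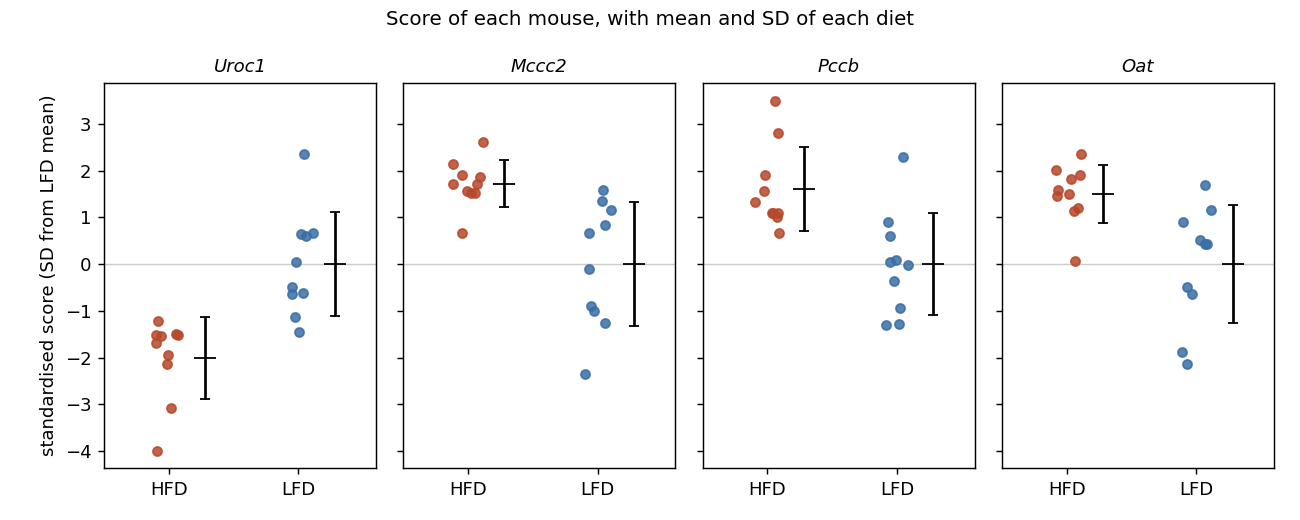
Score of each of 10 HFD and 10 LFD mice (points, in SDs from the LFD mean) with the mean and SD of each diet (bars) for Uroc1, Mccc2, Pccb and Oat. For Uroc1 the HFD mice lie at -1.23 or below, with LFD mice from -1.45 up; for the other genes the HFD mice lie high and overlap with the LFD mice. Signs turned after quantile normalisation for Mccc2 and after median centring for Mccc2 and Pccb.

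In the isoleucine and valine branches, Acadsb oxidises the isoleucine product, and Hibch and Hibadh carry out later steps of valine breakdown. All 3 had higher means in HFD, and all 3 lower ones after median centring, and 0 passed. As deposited, Hibadh had HFD mice from -1.75 through 1.34 to 2.60 and LFD mice from -0.89 through -0.09 to 1.32, with 9 of 10 HFD mice above the LFD median. The remaining mouse, HFD replicate 10, was the lowest of all 20, and without it the difference was 1.75 (adjusted p = 0.0442), against 1.01 with it (95% interval 0.06 to 1.93, limma adjusted p = 0.243). Hibch stood at 0.96 (0.02 to 1.88), with 6 HFD mice above every LFD mouse, and Acadsb at 0.14 (-0.74 to 1.01). The other probe sets of Hibadh and Hibch were also positive (0.75 and 0.25).

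Propionyl-CoA, which arises from isoleucine and valine among others, is carboxylated by the enzyme built from Pcca, the subunit that carries biotin, and Pccb. Pccb had HFD mice from 0.66 through 1.22 to 3.50 and LFD mice from -1.31 through 0.01 to 2.29. All 10 HFD mice lay above the LFD median, and 8 of 10 LFD mice lay below every HFD mouse. The difference of 1.61 (95% interval 0.57 to 2.61) narrowly missed the threshold (limma adjusted p = 0.0534), passed by the exact rank sum test (adjusted p = 0.0389), among the upper genes by mean (0.0382), after centring on standardised values (0.0115), and without LFD replicate 3 (0.0122) or HFD replicate 7 (0.0494), and turned to -1.11 after median centring (0.0285). Pcca stood at -0.19 (-1.06 to 0.70), and its other probe set, with a score of 6.223 in HFD, below the array median, at 0.94 (0.00 to 1.86). Whether Pccb and Pcca differed from each other was not tested.

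**Figure D4:**
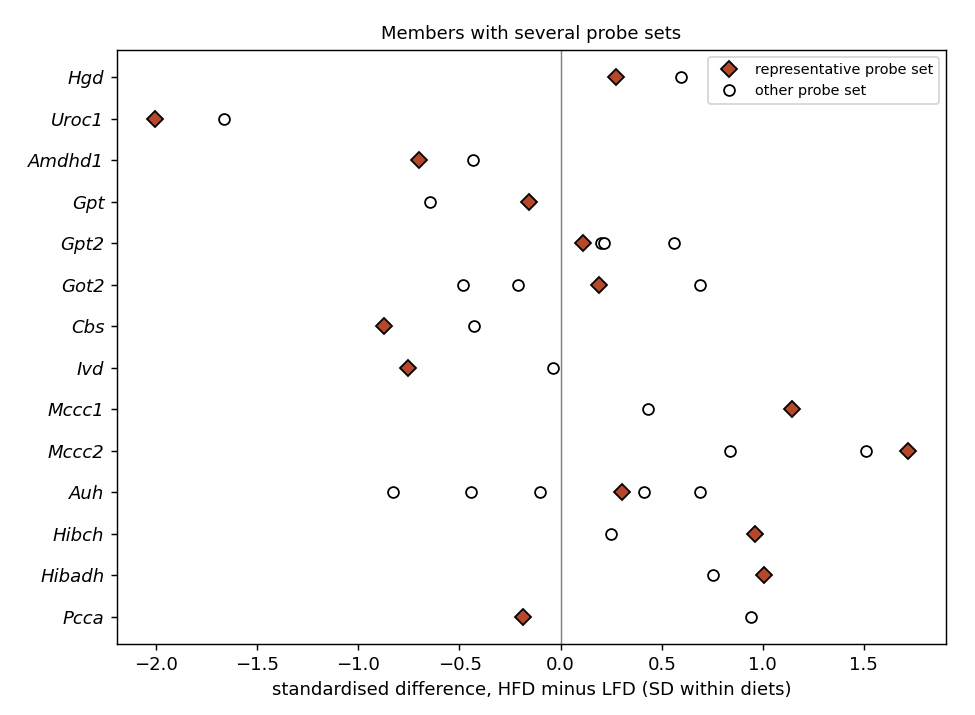
Standardised difference of every probe set of the 14 enzymes with several probe sets (diamonds, the representative; circles, the others), in SDs within diets. In 11 of the 14 all probe sets lie on the same side of 0, among them Uroc1 and Mccc2 (whose sign turned after quantile normalisation and median centring); in Got2, Auh and Pcca they do not.

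**Figure D5:**
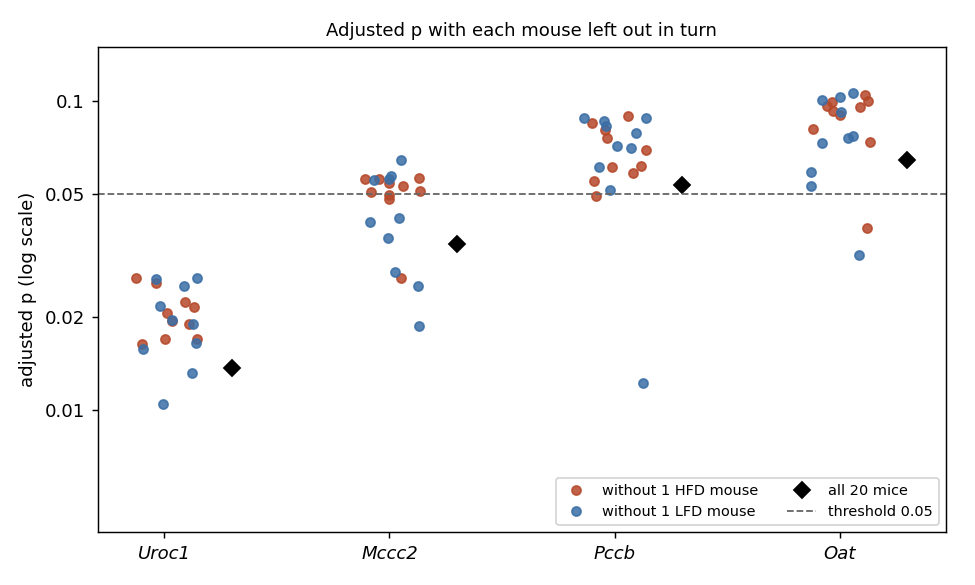
Adjusted p by limma (log axis) for Uroc1, Mccc2, Pccb and Oat with all 20 mice (diamonds) and with each mouse left out in turn (points, by the diet of the mouse). Uroc1 stays below 0.05 in all 20 fits, Mccc2 in 9, and Pccb and Oat in 2 each; the fits use the scores as deposited, and the signs of Mccc2 and Pccb turned under median centring and that of Mccc2 also under quantile normalisation.

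Other genes around these routes, a list of 76 of which 69 were measured, held 3 past the threshold (4.35%, against 3.49% of all genes), 2 higher and 1 lower. Agxt2, which transfers amino groups to glyoxylate in mitochondria, rose (2.05, 95% interval 0.93 to 3.14, limma adjusted p = 0.0122). Its HFD mice ran from 0.10 through 2.03 to 3.40 and its LFD mice from -2.14 through 0.04 to 1.10. Of the HFD mice, 8 lay above every LFD mouse. The call of Agxt2 held in all 20 fits without 1 mouse. It was lost with the replicate block (limma adjusted p = 0.0765) and at a threshold of 0.01. Qdpr, which regenerates the cofactor of phenylalanine hydroxylase, fell (-1.89, -2.94 to -0.80, adjusted p = 0.0238), with HFD mice from -3.09 through -2.11 to 0.07 and LFD mice from -1.18 through 0.09 to 1.28. The call of Qdpr was lost in 5 of 12 other settings. Among them were the fits without suffixed probe sets (-1.01, limma adjusted p = 0.255), with the mean of its probe sets (0.0813) and with the spike-in covariate (0.077). Slc1a2, a glutamate transporter of hepatocytes around the central vein, was higher by 1.62 (0.58 to 2.63, adjusted p = 0.047), a call lost in 14 of 20 fits without 1 mouse (up to 0.083, without LFD replicate 8). It was kept without LFD replicate 1, 2 or 3 or HFD replicate 3, 5 or 7 (0.017 to 0.0489). Of 13 genes of amino acid transport 11 had higher means in HFD and only Slc1a2 passed, and of 11 regulators, among them the fasting factor Creb3l3, 0 passed. Of 13 further branched-chain genes 0 passed.

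Because Oat, Hal and Uroc1 are zoned, markers of the lobule were read beside them. Of 7 markers of hepatocytes around the central vein 6 had higher means in HFD and 1, Slc1a2, passed. Their mean per mouse ran from -0.36 through 0.70 to 1.18 in HFD and from -1.52 through -0.09 to 1.42 in LFD. The defining gene Glul, glutamine synthetase, stood at -0.15 (95% interval -1.02 to 0.73), and Cyp2e1 at 0.16 (-0.72 to 1.04). Of 5 markers near the portal vein 1 passed, Sult5a1 (2.50, 1.29 to 3.67, limma adjusted p = 0.00335), while Cyp2f2 stood at -0.31 (-1.18 to 0.58) and Hsd17b13 at -1.38 (-2.35 to -0.38, adjusted p = 0.0902). Their mean ran from -0.64 through 0.19 to 0.77 in HFD and from -0.55 through -0.01 to 0.44 in LFD. The part of zonation in the values of Uroc1 and Oat was not tested.

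Over all lists of cell types 4 of 63 measured markers passed (6.35%, against 3.49% of all genes): besides Slc1a2 and Sult5a1, Cela1 of the exocrine pancreas was higher (1.80, limma adjusted p = 0.0265) and Mylpf of skeletal muscle lower (-1.99, adjusted p = 0.0209, at a score of 6.551 in HFD, below the array median). The other genes of both lists did not pass and lay on both sides of 0. In the pancreatic list Cpa1 stood at 0.42 and Ctrb1 at -0.11, and the call of Cela1 was lost with the spike-in covariate (0.0879). In the muscle list Acta1 stood at 0.80, Tnnt3 at 0.29, Ckm at -0.08 and Myh4 at -0.57, and the call of Mylpf was lost after quantile normalisation (-0.35, adjusted p = 0.649). The mean of 3 pancreatic genes per mouse ran from -0.01 through 0.79 to 1.37 in HFD and from -1.01 through -0.06 to 1.04 in LFD, and that of 5 sinusoidal endothelial genes, of which 0 passed, from 0.04 through 0.54 to 1.46 in HFD and from -1.46 through 0.03 to 0.86 in LFD. In the hepatocyte list the mean ran from -1.11 through -0.56 to -0.01 in HFD and from -0.73 through 0.03 to 0.55 in LFD, but its 4 genes were divided. Ttr stood at -3.12 (95% interval -4.43 to -1.76), with all 10 HFD mice below every LFD mouse. Its SD within diets was very small (5.02e-07). Limma draws variances towards a common value, and there Ttr missed the threshold (adjusted p = 0.224). The exact rank sum test gave Ttr an unadjusted p of 1.08e-05. Alb stood at -0.67, whereas Apoa1 stood at 1.35 (0.35 to 2.31) and Fgb at 0.17. Of 7 Kupffer cell genes, 6 of other leukocytes, 6 of stellate cells, 4 of bile ducts, 3 of red cells, 4 of fat and 4 of kidney tubules 0 passed. The part of other cell types in the enzyme values was not tested.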

How the data were processed

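Liver RNA of 10 HFD and 10 LFD mice was hybridised to 1 Affymetrix array per mouse, per the labels' protocols. The authors deposited 1 score per probe set and array; the steps of summarising and normalising are not given in the sources used here, and the file held 45037 probe sets that are not controls and 0 columns of other samples. Of these, 34945 had 1 gene symbol in the platform annotation, 932 several and 9160 are unnamed here. Replicates are separate mice per the titles, and 0 pairs of arrays held identical values.

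Diets were compared over all 18193 genes with limma 3.58.1 in R 4.3.3 (lmFit, eBayes, no covariate, two-sided, Benjamini-Hochberg adjustment, threshold 0.05; prior degrees of freedom 0.724). Intervals are 95%, from the noncentral t distribution with each gene's own SD. Limma instead draws each gene's variance towards a common value, so its p can be much larger for genes with very small SDs. The genes, lists and tests were chosen with earlier results of these data known. Every enzyme was named, with full values for those past the threshold and for the smallest p of each route; of the other lists, every gene past the threshold was named. Further markers and Creb3l3 were named after their values were seen. The fit was tested on simulated data of 18193 genes: among 200 changed ones it called 4.48% at a shift of 1 SD, 53.7% at 2 SD and 93.9% at 3 SD, and it made 4 false calls. Alternatives were quantile normalisation, median centring, centring on standardised values, only the upper genes by mean (those above the median gene), a variance trend, an unmoderated model, weighted arrays, a block for the replicate number, other choices of probe set, the exact rank sum test, a threshold of 0.01, and leaving out each mouse; the spike-in covariate was added after seeing the data.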

Additional observations from a re-analysis of the deposited data

Results flagged for a closer look

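A mouse far from the other 9 of its diet, by a gap of more than 0.466 of the group's range, was found in 4 of 72 groups of 10. Chance gives about 1 in 20, so this number lay near what chance gives. HFD replicate 3 was low for Oat (gap over range 0.47), for Gpt (0.495) and for Bckdhb (0.49). Without it Oat stood at 1.73 (limma adjusted p = 0.0387) against 1.50 with it, a call gained, Gpt at 0.13 (0.921) against -0.16, and Bckdhb at 1.06 (0.225) against 0.70. LFD replicate 4 was low for Bcat2 (0.567), which stood at -0.42 (0.713) without it against -0.18.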

How the results depend on the processing

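All genes past the threshold numbered 635 of 18193. They numbered 1488 after quantile normalisation (of 17325 that still varied), 15098 after median centring and 1344 after centring on standardised values. In the upper genes by mean they numbered 755 of 9097. They numbered 421 with the replicate block, 411 with the spike-in covariate, 212 at a threshold of 0.01 and 498 to 720 without 1 mouse. Enzymes past the threshold numbered 2 of 36, but 0 of 27 after quantile normalisation, 17 after median centring and 4 after centring on standardised values. They numbered 4 of 34 in the upper genes by mean, 1 with the replicate block and 1 with the mean of probe sets. With the spike-in covariate they numbered 1, with 0 at 0.01 and 1 to 4 without 1 mouse. Enzymes with a higher mean in HFD numbered 18, but 10 of 27 after quantile normalisation, 6 after median centring, and 17 to 20 without 1 mouse. Other genes of amino acid metabolism past the threshold numbered 3 of 69, but 6 of 61 after quantile normalisation, 44 after median centring and 8 after centring on standardised values. They numbered 5 in the upper genes, 5 with array weights, 0 with the replicate block, 1 without suffixed probe sets, 0 at 0.01 and 2 to 6 without 1 mouse. Markers numbered 4 of 63, but 7 of 56 after quantile normalisation, 39 after median centring and 7 after centring on standardised values. They numbered 1 at 0.01, and 3 to 5 without 1 mouse. After median centring each of these lists had a smaller share called than all genes.

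Route medians moved by over 1 SD after quantile normalisation for leucine (-0.556 against 0.72) and for isoleucine and valine (-0.385 against 0.96), and after median centring for tyrosine (-0.805), the shared branched-chain steps (-1.31), leucine (-0.698), isoleucine and valine (-0.629) and propionyl-CoA (-1.29). Signs turned for 9 of 27 enzymes after quantile normalisation and for 12 of 36 after median centring. Those that were called before or after the turn were Mccc2, after quantile normalisation (-0.665) and median centring (-0.598), and, after median centring, Fah (-1.36), Got2 (-1.35), Bckdha (-1.25) and Pccb (-1.11). The others were not called on either scale: Gcsh, Aldh4a1, Gpt2, Cbs, Bckdha, Bckdhb, Mccc1 and Acadsb after quantile normalisation, and Hpd, Hgd, Bckdhb, Auh, Acadsb, Hibch and Hibadh after median centring. Auh, whose representative ends in _a_at, also turned without suffixed probe sets (-0.10) and Pcca with the mean of probe sets (0.75), neither called. Uroc1 kept its sign in every fit run, and its call except after quantile normalisation and at 0.01 (adjusted p = 0.0136). Median centring by its construction takes the same amount from every gene of an array, which is largest in SDs for genes with small SDs. On average it took 7.33e-05 more from the HFD arrays. The 12 enzymes that turned there had positive deposited differences smaller than this, such as Mccc2 (4.10e-05) and Pccb (1.16e-05). Those turns follow from this arithmetic. Mccc1, with a larger difference (8.78e-05), kept its sign there. The cause of the moves after quantile normalisation was not tested. With the replicate block, Mccc2 stood at 1.46 (limma adjusted p = 0.12). Of 10 same-numbered pairs of mice, 2 deviated together with a correlation over 0.1, while replicates 3 and 8 stood at -0.159 and -0.150. Of 10 HFD mice, 1 correlated best with its own number. These correlations cannot show whether same-numbered mice share more than a number.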
